A study of Oreochromis niloticus with 6 samples.

Results

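The insulin-like growth factor (IGF) family was measured in liver samples of GIFT (Genetically Improved Farmed Tilapia), a farmed line of Oreochromis niloticus. Its members were the loci whose gene name stands for an IGF ligand, an IGF receptor, an IGF binding protein or the acid-labile subunit. The names were matched without regard to case, and the IGF2 mRNA-binding proteins were left out. The rule found 26 of the 31872 loci of the deposited table, and they carry 17 gene names. Liver RNA was sequenced in 6 libraries sampled at 96 h, 3 labelled as control (CG, dissolved oxygen 5 mg/L) and 3 labelled as hypoxia-stressed (HG, dissolved oxygen 0.7 to 0.8 mg/L, reached by pumping nitrogen into the water). All fish came from the same base of a fisheries research centre and were not fed for the day before the experiment, and the text of the study gives a lower dissolved oxygen for the HG than the labels do. Neither source says whether a library holds 1 fish or several, so p measures only the spread between these libraries. Levels are FPKM, read fragments scaled by transcript length and by the mapped fragments of the library, which the authors derived for each assembled locus.

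IGF1 and IGF2 are peptide hormones that drive growth, and the liver releases IGF1 into the blood when growth hormone (GH) acts on it. In plasma the IGFs are carried by binding proteins (IGFBPs), which control how much hormone reaches the IGF1 receptor, and the acid-labile subunit joins some of these complexes and prolongs their life. IGFBP1 is known as a fast and strongly regulated inhibitor that rises with fasting, cortisol and low oxygen and falls with insulin, and in zebrafish embryos it is known to slow growth under hypoxia. Bony fish carry duplicated copies of several of these genes, named a and b.

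HG and CG below refer to the labels of the libraries. Genes that hypoxia-inducible factor (HIF) is known to induce under low oxygen were mostly lower in the libraries labelled HG. Of 15 tested loci of HIF targets, 11 were lower, 1 was higher and 3 did not pass. Over all tested loci 12.1% were lower and 8.27% were higher. The higher locus was pdk1 (MSTRG.9868), with a log2 fold change, HG against CG, of 1.23 (limma adjusted p = 0.0112). The loci ddit4 (MSTRG.14744), ero1a (MSTRG.17308), egln3 (MSTRG.13905) and p4ha1b (MSTRG.951) had log2 fold changes, HG against CG, of -8.84, -5.67, -6.45 and -4.64 (limma adjusted p = 7.33e-05, 0.000297, 0.000369 and 0.000369). For the loci lower in HG, this order is the reverse of what is known of HIF targets under low oxygen. Of these loci, ddit4, p4ha1b, pfkfb3 (MSTRG.19007) and pfkfb4b (MSTRG.3957) had HG means of 0.284, 0.389, 0.472 and 0.791 FPKM. They reached the mean of 1 FPKM needed for a test through CG, so the count of lower loci is a description. Every direction given below rests on the labels as deposited. Library sums lay between 459912 and 493870 FPKM. The labels give no batch, and the table gives no read counts, so the counting error of a single locus is unknown. Hepatocyte markers were abundant, with summed levels of 54222 to 74335 FPKM in CG and 71998 to 86947 FPKM in HG, and in such bulk tissue fewer cells of a type and less RNA per cell cannot be told apart.

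Of the 26 loci, 15 averaged 1 FPKM or more over all libraries and were tested, and 11 were not. HG was compared with CG by limma on log2(FPKM + 1), a scale that understates the change of weakly expressed loci, and the Benjamini-Hochberg adjustment of p covered all 16423 tested loci. At an adjusted p under 0.05, 2 loci were higher in HG, 7 were lower and 6 did not pass. Over all tested loci 8.27% were higher and 12.1% were lower. Loci called DE, which also changed by 1 or more on the log2 scale, made up 8 of the 15 loci and 16.6% of all tested loci. The values of CG and HG did not overlap for 11 of the 15 loci, and for 43.5% of all tested loci. A Ballgown-style model does not share the variance between loci and also adjusts for a sum over the lower values of each library. In it 0 of all tested loci passed after adjustment, so none of the 9 calls remained. An unadjusted p under 0.05 was found for 6 of the 15 loci and for 2618 of the 16423 tested loci. The median log2 fold change was -1.03 over the 15 loci and -0.14 over all tested loci. Several loci belong to the same gene, and 4 of the 15 had a mean under 1 FPKM in 1 group and passed the minimum through the other, so these counts describe the family and are no test of it.

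**Figure D1:**
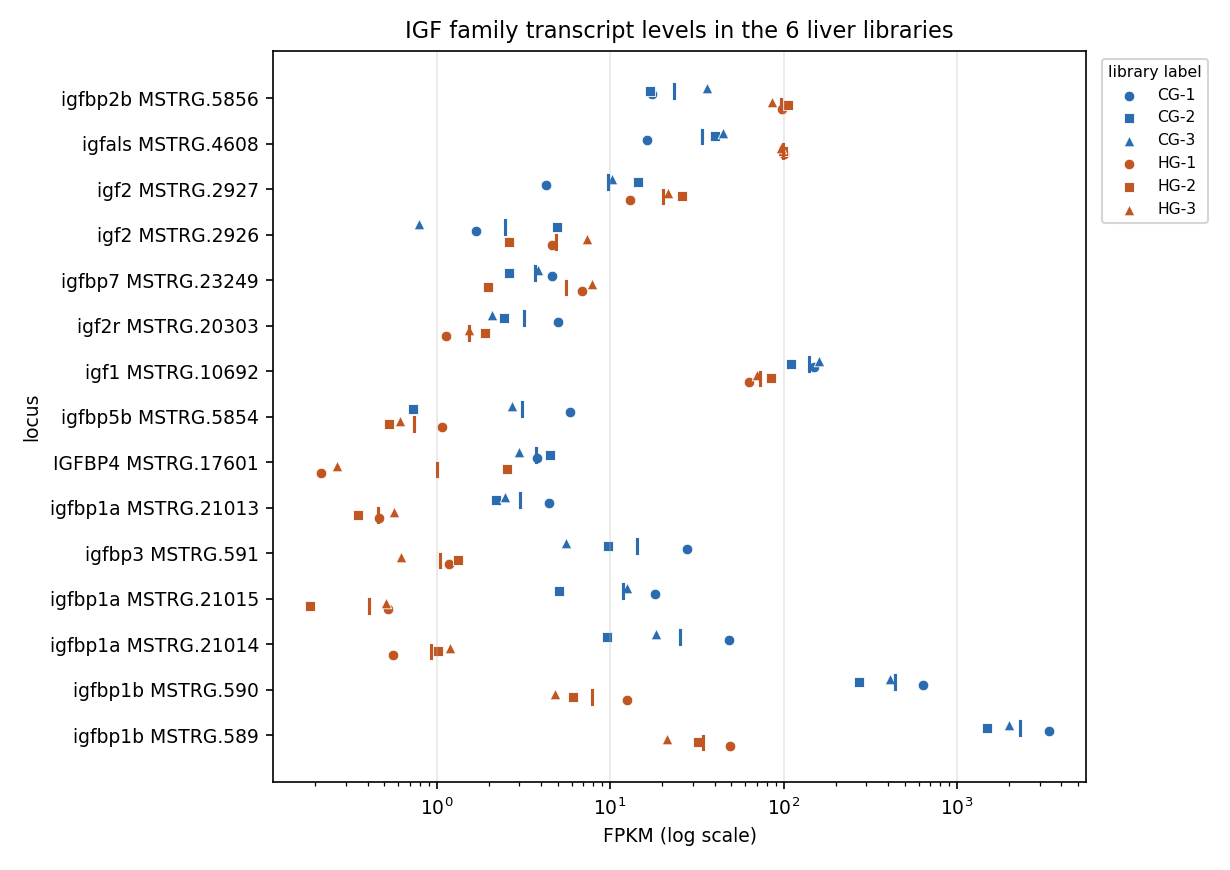
Level of each of the 15 tested IGF family loci in FPKM (x axis, log scale) in the 3 CG libraries (blue) and the 3 HG libraries (orange), with a bar at each group mean and loci ordered by fold change. The igfbp1b loci sit between 271 and 3400.1 FPKM in CG and between 4.81 and 49.3 FPKM in HG, while igfbp2b and igfals lie higher in HG.

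The largest change of the family was in igfbp1b, a copy of the IGFBP1 gene. The table holds it as a pair of loci with following numbers. The main locus (MSTRG.589), which includes an annotated transcript, had 3400.1, 1484 and 1999.7 FPKM in the CG libraries and 49.3, 32.2 and 21.3 FPKM in the HG libraries, here and below in the order of replicates 1 to 3. The lowest CG library stood far above the highest HG library. The group means were 2295 ± 992 FPKM in CG and 34.3 ± 14.1 FPKM in HG (SD, n = 3), a 67.0-fold lower mean in HG. On the log2 scale the transcript level fell by 6.02 (standard error, SE, 0.41, limma adjusted p = 0.00106). Among all loci of the table this locus ranked 13th, 41st and 26th in the CG libraries, and 787th, 1133rd and 1680th in the HG libraries. The second igfbp1b locus (MSTRG.590) holds only an assembled transcript. Its levels were 639.5, 271 and 409.7 FPKM in CG and 12.6, 6.09 and 4.81 FPKM in HG, in the same order of the libraries as the main locus. It fell by 5.66 on the log2 scale (SE 0.43, limma adjusted p = 0.00115). The main locus was 3.92 to 5.48 times as high as the second one in each of the 6 libraries.

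The other copy, igfbp1a, was far less abundant than igfbp1b in every library and also fell in HG. It is split into 3 loci with following numbers, of which only MSTRG.21015 includes an annotated transcript. MSTRG.21014 was the highest of them, with 48.3, 9.56 and 18.3 FPKM in CG and 0.564, 1.02 and 1.20 FPKM in HG. No HG value came near the CG range, and the log2 fold change was -3.50 (SE 0.53, limma adjusted p = 0.00711). MSTRG.21015 had 18.2, 5.06 and 12.5 FPKM in CG and 0.523, 0.187 and 0.512 FPKM in HG, a log2 fold change of -3.05 (SE 0.42, limma adjusted p = 0.00503). The third, MSTRG.21013, was the lowest in CG but not in HG. It had 4.45, 2.20 and 2.47 FPKM in CG and 0.464, 0.352 and 0.568 FPKM in HG. Its log2 fold change of -1.43 had an SE of 0.27 (limma adjusted p = 0.0145). In all of these loci the HG means were under 1 FPKM, so their fold changes depend on the 1 added to FPKM. With 0.1 added instead, the log2 fold changes of MSTRG.21014, MSTRG.21015 and MSTRG.21013 were -4.37, -4.47 and -2.43.

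Within CG the 5 igfbp1 loci kept 1 order, with CG-1 highest, CG-3 next and CG-2 lowest. The tested loci igfbp5b and igfbp7 had this order as well. The ratio of the highest to the lowest CG library ran from 2.02 to 5.05 over the igfbp1 loci. Over all tested family loci it ran from 1.46 for igf1 to 7.99 for igfbp5b. The order CG-1, CG-3, CG-2 was found in 22.2% of all tested loci and in 30.1% of the loci that were lower in HG, and CG-1 was the highest CG library in 46.2% and 65.3% of them. Without CG-1 the log2 fold changes of the main igfbp1b locus and of MSTRG.21014 were -5.69 and -2.90, and both calls held without each library in turn (limma adjusted p = 0.00358 to 0.00805 and 0.00739 to 0.0349). Within HG the igfbp1b loci were highest in HG-1 and lowest in HG-3, and the igfbp1a loci did not share this order.

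IGFBP3, which in mammals is the main IGF carrier of the blood, has its gene beside IGFBP1 in vertebrates. The RefSeq gene table of the assembly O_niloticus_UMD_NMBU also lists igfbp3 directly before igfbp1a. In the deposited table, which gives no coordinates, the igfbp3 (1 of many) locus MSTRG.591 carries the number after the second igfbp1b locus. It had 27.7, 9.73 and 5.56 FPKM in CG and 1.18, 1.33 and 0.623 FPKM in HG. The groups did not overlap, and the log2 fold change was -2.64 (SE 0.52, limma adjusted p = 0.0160). The call ended without HG-1 (adjusted p = 0.0560) and without HG-3 (limma adjusted p = 0.0595). A further 4 loci named igfbp3 (1 of many), numbered directly before the igfbp1a loci, were too low to test, with a highest value of 1.36 FPKM. The suffix (1 of many) marks a name shared by several copies, which may share reads.

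Loci with numbers next to the igfbp1 loci were lower in HG in part. SIRT5 (1 of many) (MSTRG.588), a mitochondrial deacylase numbered directly before the main igfbp1b locus, had a mean of 112 FPKM in CG and 6.98 FPKM in HG (n = 3 each), a log2 fold change of -3.81 (SE 0.24, limma adjusted p = 0.000926). The other copy, sirt5 (MSTRG.21017), numbered shortly after the igfbp1a loci, had 16.9 FPKM in CG and 5.31 FPKM in HG, a log2 fold change of -1.46 (SE 0.28, limma adjusted p = 0.0141). TNS3 (1 of many) (MSTRG.21016), numbered directly after the igfbp1a loci, was lower as well (log2 fold change of -1.12, limma adjusted p = 0.0354). On the far side of the igfbp1b loci, slc22a23 (MSTRG.592) did not pass, with a log2 fold change of -0.85 (SE 0.42, limma adjusted p = 0.189). Its next locus (MSTRG.593) and PHACTR1 (1 of many) (MSTRG.587), numbered before SIRT5, did not pass either (log2 fold changes of 0.35 and -0.23, limma adjusted p = 0.501 and 0.766). No source used here says whether counting kept the strands apart, and the deposited table gives no coordinates. Whether these loci overlap and share reads was not tested.

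In contrast to igfbp1, the transcript level of igfbp2b was higher in HG. IGFBP2 is a binding protein that fish liver also releases into the blood. The locus (MSTRG.5856) had 17.5, 17.0 and 36.0 FPKM in CG and 97.5, 107 and 86.1 FPKM in HG. All HG libraries lay above the highest CG library, CG-3. The means were 23.5 ± 10.9 FPKM and 96.7 ± 10.2 FPKM (SD, n = 3), a 4.12-fold higher mean in HG. The log2 fold change was 2.08 (SE 0.33, limma adjusted p = 0.00776), and the call held without each library in turn (limma adjusted p = 0.00568 to 0.0358). The other copy, igfbp2a, was not tested and reached at most 0.475 FPKM.

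The acid-labile subunit igfals (MSTRG.4608) is a leucine-rich protein made by hepatocytes, and its level was also higher in HG. It had 16.4, 40.0 and 45.0 FPKM in CG and 101, 99.5 and 97.2 FPKM in HG. The 3 HG values lay within a factor of 1.04 of each other, and CG-1 was the lowest library. The log2 fold change was 1.65 (SE 0.39, limma adjusted p = 0.0277), with a 2.94-fold higher mean in HG. The call ended without any 1 of the HG libraries (limma adjusted p = 0.0881, 0.0733 and 0.0748), while the log2 fold change stayed between 1.63 and 1.66. Without CG-1 it was 1.21.

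**Figure D2:**
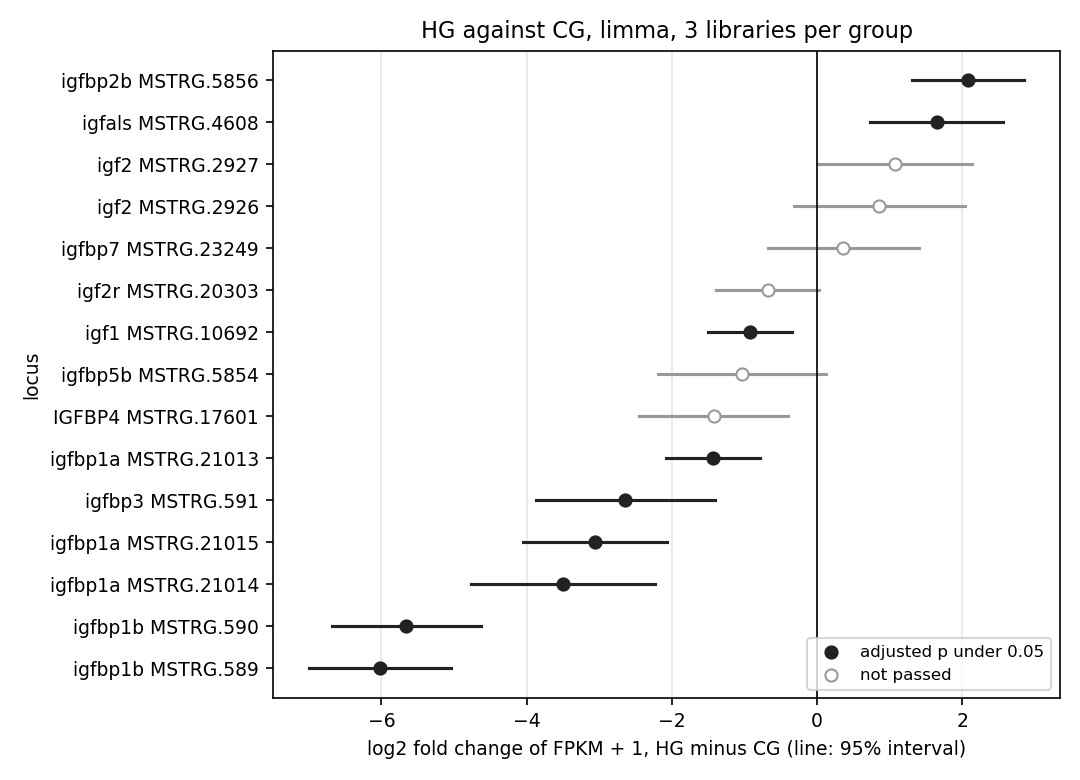
Log2 fold change of FPKM + 1, HG minus CG (x axis), of the 15 tested IGF family loci (y axis), with the 95% interval from limma as a line. Filled points have an adjusted p under 0.05, which holds for 2 loci right of 0 and 7 loci left of it.

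The ligand igf1 was moderately lower in HG. The locus (MSTRG.10692) had 149.8, 109.8 and 161 FPKM in CG and 62.9, 85.2 and 70.0 FPKM in HG. The groups did not overlap, and the smallest gap was between CG-2 and HG-2. The means were 140.1 ± 26.8 FPKM and 72.7 ± 11.4 FPKM (SD, n = 3), a 1.93-fold lower mean in HG. The log2 fold change of -0.93 (SE 0.24, limma adjusted p = 0.0391) passed by a small margin. The call ended without CG-1, without CG-3 or without any of the HG libraries (limma adjusted p = 0.0884, 0.0947, 0.129, 0.0541 and 0.0963), and it held without CG-2 (limma adjusted p = 0.0397). Median of ratios scaling of the libraries moved the median of all tested loci from -0.14 to 0.01. The log2 fold change of igf1 was then -0.71 and did not pass (limma adjusted p = 0.0797). The locus numbered directly before igf1 (MSTRG.10691), which has no gene name in the table, had a mean of 183 FPKM in CG and 159 FPKM in HG and did not pass (limma adjusted p = 0.567).

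For igf2, the ligand with the wider range of tissue sources, neither locus passed. The higher locus (MSTRG.2927), which holds only an assembled transcript, had 4.30, 14.4 and 10.3 FPKM in CG and 13.0, 25.9 and 21.6 FPKM in HG. CG-2 lay above HG-1, so the groups overlapped. The log2 fold change was 1.07, with a 95% interval of 0.01 to 2.13 before adjustment (limma adjusted p = 0.134). The lower locus (MSTRG.2926) had 1.69, 4.92 and 0.796 FPKM in CG and 4.61, 2.62 and 7.37 FPKM in HG, a log2 fold change of 0.86 with a 95% interval of -0.32 to 2.03 (limma adjusted p = 0.257). Both intervals hold a change of more than 2-fold, so these data leave the level of igf2 poorly determined.

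The remaining tested binding proteins and the IGF2 receptor were weakly expressed, and none passed. IGFBP4 (MSTRG.17601), which in mammals mainly inhibits IGF action in tissues, had 3.80, 4.49 and 3.00 FPKM in CG and 0.217, 2.53 and 0.268 FPKM in HG. HG-2 stood apart from the other HG libraries. The log2 fold change was -1.42 (SE 0.43, limma adjusted p = 0.0602), and without HG-2 it was -1.93 and passed (limma adjusted p = 0.0121). The locus igfbp5b (MSTRG.5854), a binding protein known from bone and connective tissue, had 5.85, 0.732 and 2.70 FPKM in CG and 1.07, 0.529 and 0.612 FPKM in HG. Its groups overlapped, with a log2 fold change of -1.03 (SE 0.49, limma adjusted p = 0.176), and it passed only without CG-2 (log2 fold change of -1.55, limma adjusted p = 0.0407). For igfbp7 (MSTRG.23249), a vascular protein that binds IGFs weakly, the values were 4.63, 2.60 and 3.87 FPKM in CG and 6.93, 1.98 and 7.85 FPKM in HG. Its log2 fold change was 0.36, with a 95% interval of -0.68 to 1.40 (limma adjusted p = 0.588). The receptor igf2r (MSTRG.20303), which in mammals removes IGF2 and carries lysosomal enzymes, had 5.01, 2.46 and 2.10 FPKM in CG and 1.14, 1.91 and 1.54 FPKM in HG. The groups did not overlap, but the log2 fold change of -0.68 did not pass (SE 0.30, limma adjusted p = 0.151).

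Of the 11 loci that were not tested, none exceeded 1.36 FPKM in any library, and 7 were listed at 0 in at least 1 library. They comprise the IGF1 receptors igf1ra and igf1rb, the latter as a pair of loci, with at most 1.34 FPKM. The binding proteins igfbp6a and igfbp6b reached 0.0303 and 0.271 FPKM, and IGFBP5 (1 of many) reached 0.149 FPKM. The others were igfbp2a and the 4 low igfbp3 loci. Their groups did not overlap for 5 of the 11, all lower in HG, which were igfbp6b, the igfbp3 loci MSTRG.21009, MSTRG.21010 and MSTRG.21011 and the igf1rb locus MSTRG.3087. Over all tested loci the groups did not overlap for 43.5%, and the share over untested loci was not computed. When limma was run with no minimum, 0 of the 11 passed after adjustment, and 4 had an unadjusted p under 0.05. So did 7737 of the 31872 loci of that fit. Of the 4, igfbp6b had the smallest adjusted p (limma adjusted p = 0.111).

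FPKM is given per length of transcript, so levels of different genes within a library could be set side by side. The leading loci of the 7 binding protein genes with a tested locus added up to 3508, 1528 and 2069 FPKM in CG and 157, 146 and 118 FPKM in HG. In CG, igfbp1b made up 96.9%, 97.1% and 96.6% of this sum, and igfbp2b 0.498%, 1.11% and 1.74%. In HG, igfbp1b made up 31.5%, 22.0% and 18.0%, and igfbp2b 62.2%, 72.9% and 73.0%. Among these leading loci, the highest transcript level was therefore that of igfbp1b in all 3 CG libraries and of igfbp2b in all 3 HG libraries. The ratio of igfbp1b to igfbp2b was 195, 87.2 and 55.5 in CG and 0.506, 0.302 and 0.247 in HG.

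**Figure D3:**
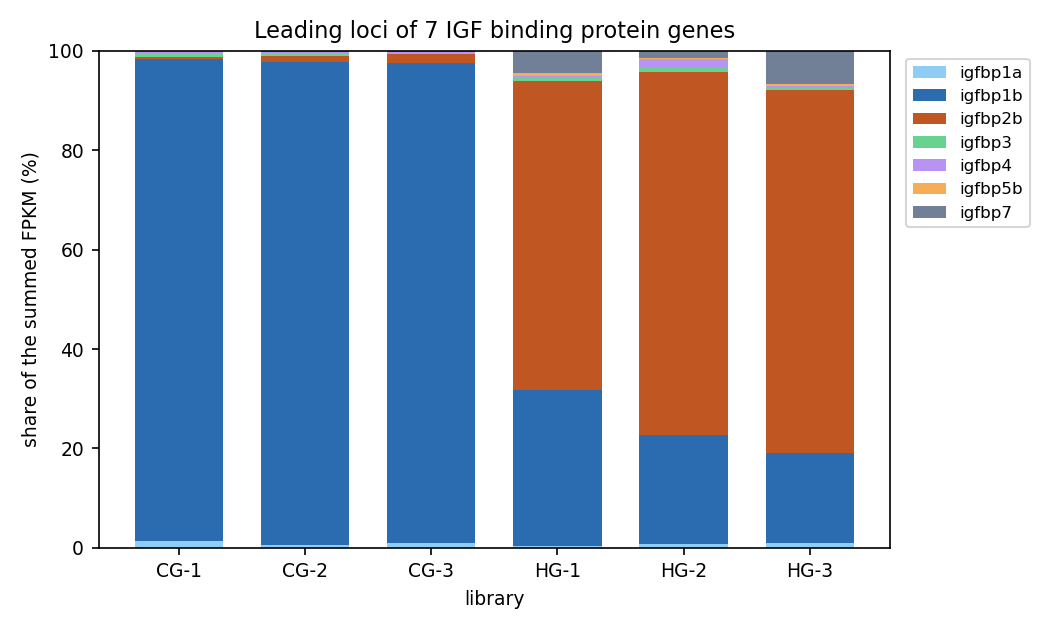
Share of each of 7 binding protein genes in the summed FPKM of their leading loci (y axis, percent) in each library (x axis). In the 3 CG libraries igfbp1b takes 96.6% to 97.1% of the sum, and in the 3 HG libraries igfbp2b takes 62.2% to 73.0%.

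The igfbp1b level exceeded that of igf1 by 22.7, 13.5 and 12.4 times in CG and was 0.784, 0.378 and 0.304 times the igf1 level in HG. The ratio of igfals to igf1 was 0.109, 0.364 and 0.280 in CG and 1.61, 1.17 and 1.39 in HG. For igf1 against the higher igf2 locus it was 34.8, 7.60 and 15.7 in CG and 4.82, 3.29 and 3.24 in HG. None of these ratios overlapped between the groups. For igfals and igf1 this follows from their levels, which each did not overlap and differed in opposite directions. Of all tested loci 43.5% did not overlap, and the share over ratios was not computed. The ratios are given as a description, with no test.

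Tested loci of other genes were ranked by how like their pattern was, and loci without a gene symbol were left out of this ranking. Among those ranked, the loci most like the main igfbp1b locus were egln3 (MSTRG.13905), ero1a (MSTRG.17308), MSTRG.16776 (named for a clone), gal3st1b (MSTRG.16775) and cdkn1cb (MSTRG.6508). Likeness was the distance between log2(FPKM + 1) values centred over the 6 libraries, and it was 0.85 for egln3 and 1.51 for cdkn1cb, against 0.53 for the second igfbp1b locus. egln3, a prolyl hydroxylase that marks HIF for degradation, had 375, 212 and 239 FPKM in CG and 2.61, 1.81 and 1.86 FPKM in HG. For igfbp2b the closest loci were slc22a2 (MSTRG.20310), si:dkey-186o21.1 (MSTRG.15797), hipk2 (MSTRG.9663), CYP2W1 (1 of many) (MSTRG.9186) and flvcr2b (MSTRG.18862), at distances of 0.49 to 0.56, and igfals lay at 1.08. This likeness is a description over 6 libraries, and the difference between the groups enters it.

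The wider GH and IGF axis was taken as 6 lists with 72 loci, of which 45 were tested. Of these, 2 rose in HG, 15 fell and 28 did not pass, against 8.27% and 12.1% of all tested loci. The median log2 fold change was -0.76 over the 45 loci and -0.14 over all tested loci. With a CG library left out (1 to 3 in turn) 9, 10 and 11 loci were lower, and with an HG library left out 5, 10 and 5. Of the 17 loci with a call, 9 had a mean under 1 FPKM in 1 group and passed the minimum through the group where they were higher, so the counts are a description. These were grb10a (MSTRG.6346), PAPPA, stc2b, esm1, cyr61, wisp2, ppargc1a and both loci called higher, socs1b and ctgfa (MSTRG.3299). Of the 17 loci, 5 kept the call without each library in turn, and these were grb10b, grb10a, cyr61, stat3 and INSR (1 of many).

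**Figure D4:**
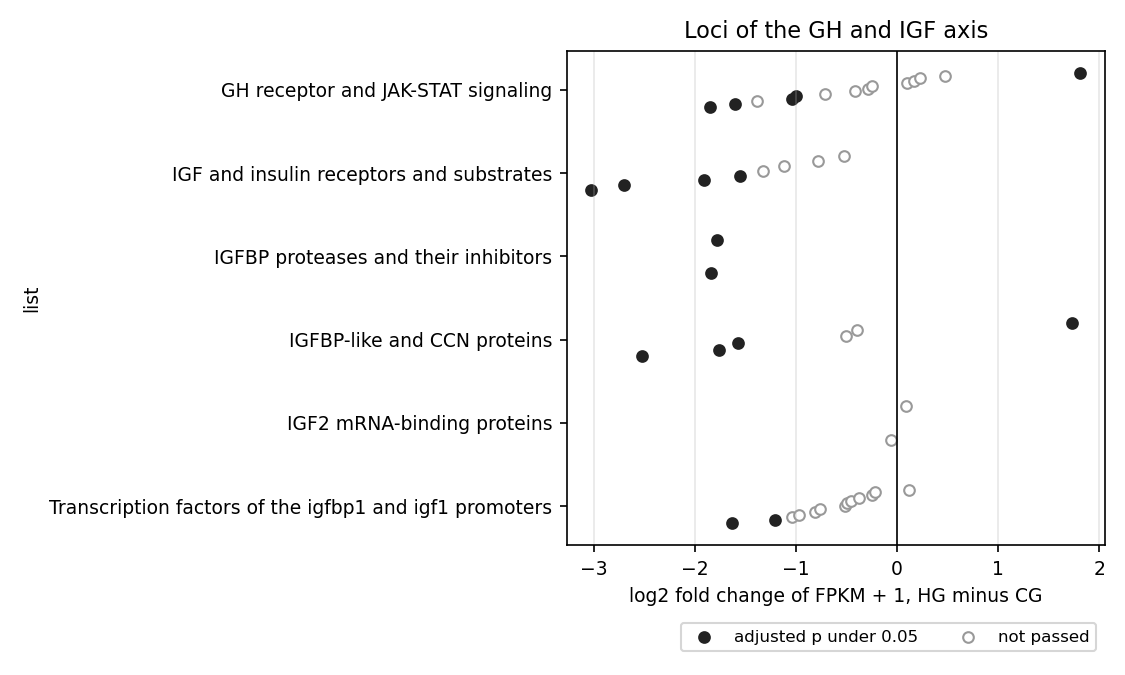
Log2 fold change of FPKM + 1, HG minus CG (x axis), of the tested loci of each list of the GH and IGF axis (y axis), 1 point per locus, with filled points for an adjusted p under 0.05. Of the filled points 15 lie left of 0 and 2 right of it.

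Among receptors and their adaptors, 4 of 8 tested loci were lower in HG and none was higher, against 12.1% and 8.27% of all tested loci. The adaptor grb10b (MSTRG.6149), known in mammals to inhibit insulin and IGF1 receptors, had 34.2, 16.9 and 12.6 FPKM in CG and 1.32, 2.53 and 0.949 FPKM in HG, a log2 fold change of -3.02 (SE 0.40, limma adjusted p = 0.00457). Its copy grb10a (MSTRG.6346) fell on the log2 scale by 2.70 (limma adjusted p = 0.00627), while a second grb10a locus (MSTRG.6345) did not pass (log2 fold change of -1.12, limma adjusted p = 0.0570). The insulin receptor locus INSR (1 of many) (MSTRG.11147) had 15.9, 13.4 and 16.6 FPKM in CG and 2.10, 3.68 and 4.55 FPKM in HG. It fell on the log2 scale by 1.91 (limma adjusted p = 0.00515). The other tested loci with the name INSR (1 of many), MSTRG.2325 and MSTRG.2328, did not pass (log2 fold changes of -0.78 and -0.53, limma adjusted p = 0.0620 and 0.536). The substrate irs2b (MSTRG.15772), which passes the signal on from these receptors, fell by 1.56 (limma adjusted p = 0.0218) and lost its call without HG-1 or HG-3 (adjusted p up to 0.0803). Its copy irs2a (MSTRG.3493) did not pass (log2 fold change of -1.33, limma adjusted p = 0.105).

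For the GH receptor and its JAK-STAT signaling, 1 of 14 tested loci was higher and 4 were lower, against 8.27% and 12.1% of all tested loci. The GH receptor ghr (MSTRG.2777) had 12.3, 13.7 and 19.1 FPKM in CG and 19.0, 23.8 and 20.3 FPKM in HG. It did not pass, with a log2 fold change of 0.48 (limma adjusted p = 0.195). stat3 (MSTRG.4552), a transcription factor activated by cytokines, had the highest mean of the list over the 6 libraries, with 98.3, 51.8 and 54.8 FPKM in CG and 20.2, 17.8 and 14.8 FPKM in HG. It fell on the log2 scale by 1.85 (limma adjusted p = 0.00901). The main mediators of GH, stat5a (MSTRG.4551) and stat5b (MSTRG.16976), did not pass, at -0.71 and -0.25 on the log2 scale (limma adjusted p = 0.0873 and 0.649). Of the SOCS genes, which inhibit cytokine and GH receptors, socs2 (MSTRG.11403) was lower in HG, with means of 10.9 FPKM in CG and 4.93 FPKM in HG (limma adjusted p = 0.0228). The socs3b loci MSTRG.4323 and MSTRG.4322 were lower as well, at log2 fold changes of -1.60 and -1.04 (limma adjusted p = 0.0378 and 0.0390). socs1b (MSTRG.19342) was higher in HG, with 0.610, 0.424 and 0.507 FPKM in CG and 2.30, 3.83 and 8.44 FPKM in HG and a log2 fold change of 1.81 (limma adjusted p = 0.0206). Its copy socs1a (MSTRG.18048) did not pass, with means of 12.2 FPKM in CG and 16.1 FPKM in HG (limma adjusted p = 0.854). Neither did socs3a (MSTRG.12812), with a log2 fold change of -1.39 (limma adjusted p = 0.0563). The call ended without CG-1, CG-3, HG-1 or HG-3 for socs2, without any library but CG-2 for MSTRG.4323, without any but CG-1 for MSTRG.4322, and without HG-2 or any CG library for socs1b (adjusted p up to 0.0805, 0.116, 0.121 and 0.0587).

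Proteases of the binding proteins and the stanniocalcins that inhibit them were weakly expressed. Of 13 loci 2 were tested, and both were lower in HG, against 12.1% of all tested loci. Both passed the minimum only through CG, with HG means of 0.00489 and 0.125 FPKM, so this count is a description. PAPPA (MSTRG.18094), a protease that cleaves IGFBP4 in mammals, had 6.83, 1.76 and 1.16 FPKM in CG and was listed at 0.0147, 0 and 0 FPKM in HG (log2 fold change of -1.84, limma adjusted p = 0.0428). stc2b (MSTRG.9533), a copy of the stanniocalcin that inhibits PAPPA in mammals, had 3.22, 1.05 and 5.52 FPKM in CG and 0.0318, 0.295 and 0.0475 FPKM in HG (log2 fold change of -1.78, limma adjusted p = 0.0331). Leaving out any 1 of the HG libraries ended both calls, as did leaving out CG-2 for PAPPA and CG-1 or CG-3 for stc2b (adjusted p up to 0.109 and 0.0958). Among IGFBP-like and CCN proteins, cysteine-rich matrix proteins, cyr61 (MSTRG.15109) had 9.07, 2.58 and 6.74 FPKM in CG and 0.257, 0.0809 and 0.0938 FPKM in HG (log2 fold change of -2.52, limma adjusted p = 0.00748). In this list esm1 (MSTRG.14260) and wisp2 (MSTRG.20771) were also lower, at log2 fold changes of -1.76 and -1.57 (limma adjusted p = 0.0198 and 0.0488). The call ended for esm1 without any library but CG-3, and for wisp2 without CG-1, CG-2, HG-1 or HG-3 (adjusted p up to 0.0682 and 0.137). A ctgfa locus (MSTRG.3299) was higher in HG, with a log2 fold change of 1.74 (limma adjusted p = 0.0112, and 0.0511 without HG-1), while the other one (MSTRG.3300) did not pass (log2 fold change of -0.39, limma adjusted p = 0.471). In the IGF2 mRNA-binding list neither of the 2 tested loci passed.

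Of 13 tested loci of transcription factors and coactivators known to act on the promoters of igfbp1 or igf1 in mammals, 2 were lower and 11 did not pass. Over all tested loci 12.1% were lower, and the count of 2 in 13 is near this share. foxo1a (MSTRG.12860), a forkhead factor that insulin shuts off, had 13.9, 3.81 and 5.53 FPKM in CG and 1.11, 1.92 and 1.57 FPKM in HG (log2 fold change of -1.63, limma adjusted p = 0.0370). ppargc1a (MSTRG.13035), a coactivator of the fasting response, fell on the log2 scale by 1.21 (limma adjusted p = 0.0426). Both lost the call without any 1 of the HG libraries, foxo1a also without CG-3, and ppargc1a also without CG-1 or CG-2 (adjusted p up to 0.119 and 0.111). The HIF subunit gene hif1aa (MSTRG.15879) had 16.9, 13.8 and 7.86 FPKM in CG and 8.53, 8.40 and 7.97 FPKM in HG and did not pass (log2 fold change of -0.51, limma adjusted p = 0.246). The locus with the highest mean over the 6 libraries, atf4a (MSTRG.24591), also did not pass (log2 fold change of -0.49, limma adjusted p = 0.217).

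Markers of some other cell types were lower in HG in larger shares than the 12.1% of all tested loci. Of 28 tested hepatocyte loci, 7 were higher in HG and 2 were lower, against 8.27% and 12.1% of all tested loci. Loci named fetub (1 of many) were called in both directions, with MSTRG.16413, MSTRG.16416 and MSTRG.16421 higher and MSTRG.16419 lower. The other lower locus was the abundant hpx (MSTRG.17999), with means of 20940 FPKM in CG and 7372 FPKM in HG. Its log2 fold change was -1.53 (limma adjusted p = 0.0041). The genes igf1 and igfals are known to be expressed in hepatocytes. Of 10 tested endothelial loci, 5 were lower and none was higher, and their list added up to 55.7 to 65.4 FPKM in CG and 24.3 to 29.1 FPKM in HG. Of 9 tested loci of stellate cells and fibroblasts, 1 was lower, and the sums overlapped, at 19.1 to 33.2 FPKM in CG and 14.7 to 22.1 FPKM in HG. Loci listed for the bile duct were lower in 4 of 6 tests, with sums of 608 to 702 FPKM and 218 to 291 FPKM. The keratins krt8 and krt18, both called lower, held most of these sums. Their means were 444 and 180 FPKM in CG and 163 and 72.8 FPKM in HG. The cells that these keratin transcripts came from are not known here. Exocrine pancreas loci were lower in 5 of 7 tests, with sums of 513 to 1099 FPKM in CG and 57.2 to 260.5 FPKM in HG. Of 16 tested loci of macrophages and neutrophils 5 were lower, and their sums overlapped, at 1892 to 2224 FPKM and 1862 to 3197 FPKM. The LYZ (1 of many) loci MSTRG.21378 and MSTRG.2708, which did not pass, held most of these sums. Their means were 1111 and 822 FPKM in CG and 1520 and 804 FPKM in HG. No locus of these lists was at 0 in all 6 libraries. The sums of the endocrine pancreas, erythrocyte and skeletal muscle lists overlapped between the groups. The part of these cell types in the levels of the IGF family was not tested.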

How the data were processed

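The authors sequenced poly(A) RNA of 6 liver libraries as paired reads, mapped them with HISAT to the Nile tilapia genome, assembled transcripts with StringTie, estimated levels with Ballgown and deposited an FPKM value for each locus and library. Versions and the genome build are not given in the sources used here. FPKM was used as deposited, from all 6 columns of sample values. Values were transformed to log2(FPKM + 1), and loci averaging 1 FPKM or more were tested with limma 3.58.1 in R 4.3.3, with a variance trend (2.86 prior and 4 residual degrees of freedom), two-sided. Python 3.11.15, pandas 2.3.3 and matplotlib 3.10.9 made tables and figures. The fit was tested on simulated data with known changes.

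The members and lists were chosen with earlier results of these data known. Every tested member was named, with every locus of the GH and IGF axis under an adjusted p of 0.05 and the 4 HIF targets with the smallest adjusted p. The 5 closest patterns to igfbp1b and igfbp2b among tested loci with a gene symbol outside the family were named too. The pdk1, pfkfb3, pfkfb4b, fetub, hpx, sirt5, slc22a23 and MSTRG.10691 loci and examples of loci that did not pass were chosen after their values were seen. Of the 17 gene names, 12 are in the RefSeq gene table, which was used only for names and neighbours. The names not found there are igfbp1b, igfbp2b, igfbp4, igfbp5 and igfbp6a. Alternatives were pseudocounts of 0.1 and 0.5, no minimum, a minimum of 10 FPKM, 3 scalings, robust or trendless limma, a Ballgown-style model, replicate number as a block, each library left out, and loci of a name summed.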

Additional observations from a re-analysis of the deposited data

How the results depend on the processing

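No tested IGF family locus changed direction under any alternative. The Ballgown-style model does not share the variance between loci and adjusts for a sum over the lower values of each library, so the fold changes moved too. The log2 fold change was -5.93 for the main igfbp1b locus and 0.99 for igfals. In this model 0 loci passed with adjustment (0 higher and 0 lower in the family, in the axis lists and over all tested loci), and 6 family loci and 2618 loci in all had an unadjusted p under 0.05. In the family, 1 locus was higher with no minimum, and 4 were lower with a minimum of 10 FPKM or with loci of a name summed. The minimum of 10 FPKM left 7 family loci and the summing left 11, and none of these changed its call. In the axis lists, 1 was higher and 9 were lower with no minimum, 0 and 5 with a minimum of 10 FPKM, and 1 was higher with loci of a name summed. Over all tested loci 634 were higher and 770 lower with a minimum of 10 FPKM, where only 3319 loci were tested. With median of ratios, upper quartile and quantile scaling 11, 12 and 11 axis loci were lower against 15. All of these ended the calls of ppargc1a (adjusted p = 0.0593, 0.0603 and 0.0670), socs3b MSTRG.4322 (0.0619, 0.0696 and 0.0594) and wisp2 (0.0544, 0.0505 and 0.0504), and median of ratios and quantile scaling ended that of socs3b MSTRG.4323 (0.0517 and 0.0516). Median of ratios scaling gave 1817 higher and 1595 lower loci, against 1359 and 1990 without it. With each library left out in turn, 1 to 2 family loci were higher and 5 to 8 lower, 1 to 2 axis loci higher and 5 to 11 lower, and 784 to 970 loci of the table higher and 804 to 1434 lower. Libraries with the same replicate number did not deviate together (correlations of 0.0365, -0.102 and -0.0810), and not every library correlated best with its own number, so the number does not pair them. With the replicate block 7 axis loci were lower, and over all tested loci 867 were higher and 1093 lower. In the family the block ended the call of igf1 (adjusted p = 0.118 from limma). The call of igf1 also ended with no minimum, with median of ratios scaling and with upper quartile scaling (adjusted p = 0.0564, 0.0797 and 0.0820), and that of igfals with no minimum (adjusted p = 0.0615 from limma). Apart from loci that were left out or merged, the cause of these changes was not tested.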
